A study of Mus musculus with 24 samples.

Results

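LSK cells are the lineage-negative, Sca1-positive, Kit-positive fraction of mouse bone marrow, which is enriched for hematopoietic stem cells and also holds multipotent and lymphoid-primed progenitors. The arrays described here compared LSK cells of mice labelled BAP1 knockout (KO) with those of mice labelled wild type (WT). They were chosen by their source label, HSC-enriched, and make up 12 of the 24 arrays and 4 of the 8 mice of the series. The other arrays measured myeloid progenitors in the same way in other mice. All animals had the C57BL/6 background, and per the labels' protocols they were injected with tamoxifen to delete Bap1 throughout the body. The sources used here do not give ages, the floxed allele, the Cre line or the time after tamoxifen. Mouse 1 and mouse 3 were labelled WT, mouse 2 and mouse 4 KO, and each gave 3 arrays, which were averaged so that n = 2 mice per group throughout.

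BAP1 is a nuclear deubiquitinase that, together with ASXL proteins, removes ubiquitin from histone H2A. The same mark is written by Polycomb repressive complexes on silenced genes, and BAP1 also binds the transcriptional cofactor HCFC1 and the glycosyltransferase OGT. Loss of BAP1 in blood-forming tissue is known to disturb myeloid output in mice and to be selected in several human tumours. The comparison asks which transcripts of the stem-cell-enriched fraction differ when the gene is deleted.

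Values are deposited log2 array levels, and differences are KO minus WT with the standard error (SE) of the limma fit. A gene was said to rise or fall when its limma p, adjusted by Benjamini-Hochberg over all probes, lay under 0.05. Each gene was read by its brightest probe. A group mean under 6.5 lies near the low end of the arrays, where no fold is given and a difference is best read as a minimum. In bulk RNA of a sorted fraction, fewer cells of a type and less RNA per cell cannot be told apart.

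The targeted gene did not check the labels. Bap1 read 11.55 and 11.45 in WT mice and 11.96 and 11.84 in KO mice, a difference of 0.40 ± 0.18 (limma adjusted p = 0.321), and where its probe lies relative to the deleted part is not given. Of the 20 measured genes nearest to Bap1 on chromosome 14, 10 on each side, only the axonemal dynein Dnah1 passed (0.81 ± 0.18, adjusted p = 0.0266), and it lost that call without any 1 of the 4 LSK mice or either KO myeloid progenitor mouse. The neighbours' median was 0.11. Among WT mice, LSK cells exceeded myeloid progenitors in the stem cell factors Mecom (4.32 ± 0.26) and Hlf (3.88 ± 0.23) and in the progenitor receptor Flt3 (2.89 ± 0.30). They lay below them in the granule protease Elane (-4.33 ± 0.39). Medians of the same contrast were -0.02 over 26 neutrophil genes, -0.74 over 21 monocyte and macrophage genes and -0.94 over 27 erythroid genes. Kit, shared by both gates, did not differ between the populations (0.22 ± 0.21, adjusted p = 0.571), and Ly6a, which encodes Sca1, was not analysed here.

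Mouse 1 differed from the other LSK mice in a Y-linked signal. The Y-linked demethylase gene Kdm5d read 7.88 there and 6.00 to 6.02 in the other 3, so the WT group mixes a mouse with and a mouse without this signal. Counts without this mouse are given beside the main gene groups. Between the WT mice 145 genes lay at least 2-fold apart, and between the KO mice 290, whereas the 4 pairs of a WT and a KO mouse differed that far in 577 to 971 genes.

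Of 17741 named genes, 309 (1.74%) were higher and 515 (2.90%) lower in KO LSK cells, together 824 (4.64%). Among them 166 rose and 264 fell by at least 2-fold, while the median difference of all genes was 0.0155. At an unadjusted limma p under 0.05, 2942 of the 17741 genes passed in either direction, the base for unadjusted counts of gene groups. Both KO mice lay above both WT mice in 25.7% of genes and below them in 20.9%, so this separation alone is common. It held for all 824 called genes. Leaving out mouse 1 changed the genes called to 430 (148 higher, 282 lower), with 354 of the 824 among them. Calls in every fit that left out a single mouse numbered 264, of which 97 were higher and 167 lower. In 110 called genes the KO mean and in 46 the WT mean alone lay near the low end, and in 32 both did.

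**Figure D1:**
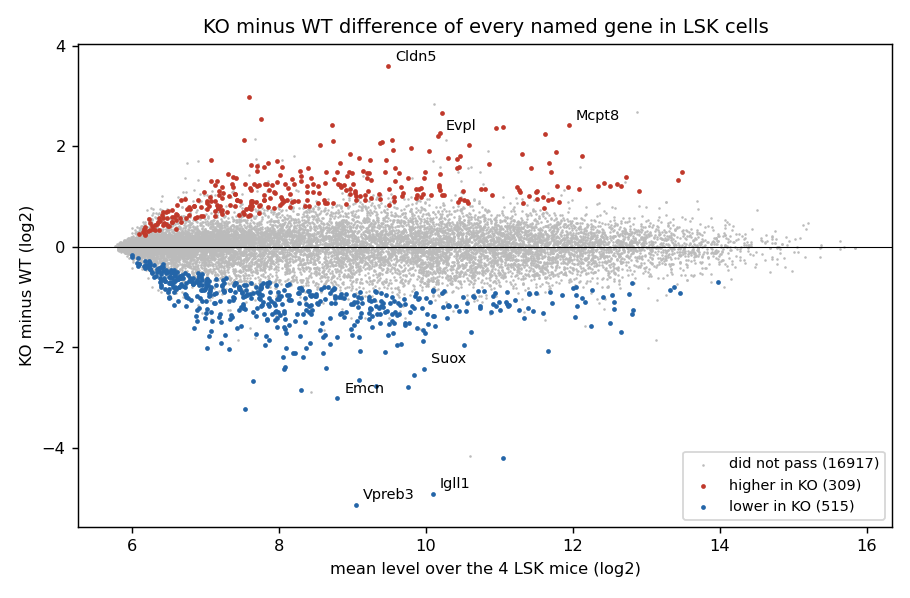
KO minus WT difference (vertical axis, log2) of each of the 17741 named genes against its mean level over the 4 LSK mice (horizontal axis, log2). The 309 genes higher in KO are red, the 515 lower genes blue, and genes that did not pass grey; Vpreb3, Igll1 and Emcn lie at the bottom and Cldn5 at the top.

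Below the genes at the bottom of that plot, further genes fell several-fold; those named here are not the largest decreases. Suox, the mitochondrial sulfite oxidase, read 11.27 and 11.09 in WT mice against 8.93 and 8.58 in KO mice, a 5.36-fold decrease (-2.42 ± 0.23, adjusted p = 0.000453). Both KO mice lay more than the whole WT spread below either WT mouse. Zfp30, a KRAB zinc finger gene, read 9.60 and 8.97 against 6.95 and 6.83 (-2.39 ± 0.21, 5.25-fold). Esr1, the estrogen receptor alpha, read 10.78 and 10.20 against 7.98 and 8.81, and fell 4.26-fold (-2.09 ± 0.33, adjusted p = 0.00596).

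Paqr5, a membrane progestin receptor, read 9.16 and 9.39 in WT mice and 7.05 and 7.27 in KO mice (-2.11 ± 0.16, 4.31-fold, adjusted p = 0.000152). Slc35d3, a transporter-like protein of platelet granules, read 9.22 and 9.07 against 7.06 and 6.85 (-2.19 ± 0.19, 4.56-fold). The chloride channel protein Clic5 fell 4.28-fold (-2.10 ± 0.21). In Paqr5 and Slc35d3 the mice of a group lay close together and the groups were widely separated. Both were named for a small adjusted p and a large change, which favours such genes.

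Among immune genes outside the B lineage, the costimulatory ligand Cd86 read 10.20 and 10.09 against 8.31 and 7.83 (-2.08 ± 0.21, 4.22-fold). Cd96, an adhesion receptor of T and NK cells that is also present on progenitors, read 10.93 and 10.34 against 8.70 and 8.70 (-1.94 ± 0.23, 3.84-fold). The lipoxygenase Alox15 read 9.48 and 9.85 against 7.54 and 7.91 (-1.94 ± 0.24, 3.84-fold). The costimulatory receptor Icos fell by 1.96 ± 0.31 but lost its call without mouse 2 or mouse 4 (adjusted p up to 0.0851) and in the fits of all arrays with mouse as a random block (adjusted p = 0.129, and 0.137 with array number as a block). The actin-binding calponin Cnn3, one of the more abundant of these transcripts, read 12.80 and 12.61 against 10.29 and 10.97 (-2.08 ± 0.24, 4.22-fold).

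On the rising side, several transcripts are best known from epithelia, matrix or testis. Some of them, such as Evpl, already read above the median probe mean of 7.20 in WT mice. Evpl, the cornified-envelope and desmosome protein envoplakin, read 9.02 and 9.10 in WT mice and 11.25 and 11.29 in KO mice, a 4.63-fold rise (2.21 ± 0.20, adjusted p = 0.000257). Asprv1, a protease of the epidermis, rose 3.81-fold (1.93 ± 0.22). Tesmin, a testis-expressed gene, rose 3.89-fold (1.96 ± 0.26), and Spata48, another testis-associated gene, rose 4.07-fold (2.03 ± 0.23). Of 24 germ line and testis genes 1 was higher and 1 lower (4.17% each, against 1.74% and 2.90% of all genes). Of the 24, 18 lay near the low end in both groups.

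Epcam, an epithelial adhesion molecule, read 8.24 and 8.71 against 10.92 and 10.27 (2.12 ± 0.38, 4.36-fold), and lost its call without mouse 1 or mouse 2 (adjusted p up to 0.115). Fastk, a mitochondrial RNA-binding protein, read 8.45 and 8.29 against 10.44 and 10.45 (2.08 ± 0.23, 4.22-fold). The arrestin-domain protein Arrdc4 rose 3.39-fold (1.76 ± 0.25), and the axonal protein gene Cntnap1 read 6.85 and 6.95 against 8.48 and 8.52 (1.60 ± 0.16, 3.03-fold). In Evpl, Fastk and Cntnap1 the mice of each group lay close together, which naming genes by a small adjusted p favours.

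**Figure D2:**
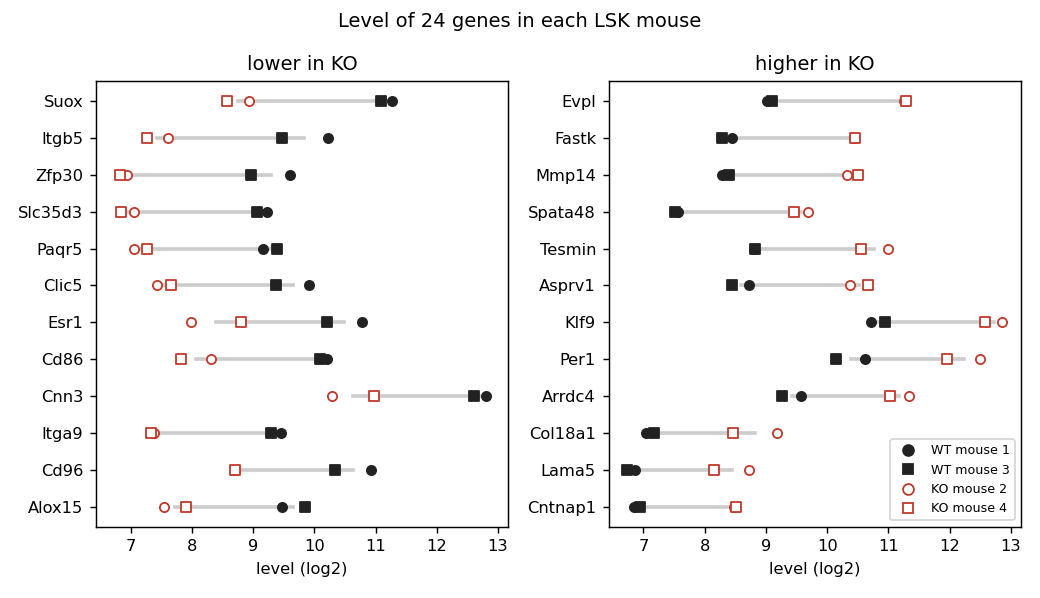
Levels (horizontal axis, log2) of 24 called genes in each LSK mouse, with black symbols for WT and open red symbols for KO mice and a grey line between the group means. In every gene shown the KO mice do not overlap with the WT mice. This was a rule for naming them and held for all 824 called genes. Suox falls from above 11 to below 9, and Evpl rises from about 9 to above 11.

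Some of the most abundant transcripts of these cells were also affected. Lgals1, the secreted lectin galectin-1, read 12.53 and 13.00 in WT mice against 14.33 and 13.86 in KO mice (1.33 ± 0.21, 2.51-fold, adjusted p = 0.00600). S100a4, a calcium-binding protein of motile cells, read 11.67 and 11.89 against 13.11 and 13.01 (1.28 ± 0.19, 2.42-fold). In the opposite direction, the G protein subunit Gng2 read 13.35 and 13.16 against 11.83 and 11.66 (-1.51 ± 0.21, 2.84-fold).

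The phosphoinositide-binding adaptor Dapp1 fell 2.54-fold (-1.34 ± 0.21), and Cd93, a C-type lectin-like receptor of early progenitors and endothelium, read 13.11 and 12.96 against 11.44 and 11.46 (-1.58 ± 0.18, 2.99-fold). The brightest probe of Trappc9 rose (1.40 ± 0.23), while 3 dimmer probes of Trappc9 read -0.30, -0.02 and 0.30 and did not pass. Both dimmer probes of Rpl3l, near the low end, also did not follow its brightest one (-0.01 and 0.02 against 1.73). Dimmer probes also did not pass for Arrdc4 (1.11), Csf2rb (0.61), Plek (-0.79) and Ccr9 (0.02, near the low end). The dimmer probe of Evpl did rise with the brighter one (1.79).

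Lymphocyte genes were examined by cell type. The gene lists of this report were chosen with earlier results of these data known. Their shares beside those of all genes are therefore description and not a test. Of 16 measured B cell genes, 9 were lower in KO and 0 higher (56.2% lower against 2.90% of all genes), with a median of -0.83, and 13 fell at an unadjusted p under 0.05. Without mouse 1 the count was 10. The mean level of the list was 8.57 and 8.66 in WT mice and 7.18 and 6.97 in KO mice. Bank1, an adaptor of B cell receptor signalling, read 7.39 and 7.27 against 6.06 and 6.24 (-1.18 ± 0.12, adjusted p = 0.000710), with the KO mean near the low end. Fcrla, an intracellular Fc receptor-like protein, read 6.87 and 7.13 against 6.13 and 5.90 (-0.99 ± 0.11), also ending near the low end. Blnk, the linker downstream of the pre-B cell receptor, read 8.45 and 7.62 against 6.25 and 5.77, and its call was lost without mouse 8 (adjusted p = 0.0513) and in the fits of all arrays with mouse as a random block (adjusted p = 0.208, and 0.251 with array number as a block).

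Not all B cell genes passed. Cd79a, which encodes the signalling chain Ig-alpha and was chosen after its values were seen, read 7.15 and 7.14 in WT mice and 7.05 and 6.93 in KO mice (-0.16 ± 0.16, adjusted p = 0.724). In the plasma cell list 4 of 11 members fell, with a median of -0.53, and 2 to 5 fell when any single mouse was left out. Of all genes 2.90% fell, against 36.4% of this list and 21.4% and 29.4% of the NK and dendritic cell lists below. Irf4, a transcription factor of plasma and dendritic cells, read 7.56 and 8.09 against 6.45 and 6.23 (-1.48 ± 0.18, adjusted p = 0.00182). Mzb1, a chaperone of antibody-secreting cells, read 10.54 and 11.67 against 9.28 and 7.86 (-2.54 ± 0.51), and lost its call without mouse 3 or any myeloid progenitor mouse (largest adjusted p 0.0977). Of 14 NK cell genes 3 fell and 0 rose (2 and 0 without mouse 1, and 0 lower without mouse 2 or mouse 4). Of 17 dendritic cell genes 5 fell and 1 rose (5 and 0 without mouse 1, and 3 lower without mouse 2, 3, 7 or 8).

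Genes that prime progenitors for lymphoid fates fell in 5 of 15 cases and rose in 0, with a median of -0.40 (4 and 0 without mouse 1). The share lower was 33.3% against 2.90% of all genes. Ccr7 and Ccr9 are chemokine receptors that guide lymphoid cells and thymus-seeding progenitors. Ccr9 read 8.96 and 8.24 in WT mice against 7.45 and 7.19 in KO mice (-1.28 ± 0.24, 2.43-fold), and lost its call without mouse 1 or mouse 4. Ccr7 read 7.20 and 6.79 against 6.32 and 6.04 (-0.81 ± 0.14), with the KO mean near the low end. The T cell list had 4 of 20 members lower and 1 higher. Its costimulatory receptor Cd28 fell to near the low end (-0.99 ± 0.13), while the transcription factor Tcf7 read 6.84 and 6.72 against 7.91 and 8.04, a 2.29-fold rise (1.20 ± 0.16, adjusted p = 0.00225). Of the lineage markers that the sort removes, 7 of 12 were measured; limma called 0 of them, and 1, Cd5, passed at an unadjusted p under 0.05 (-0.26 ± 0.08).

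Of 38 chemokine and chemokine receptor genes 8 were lower and 2 higher (21.1% lower against 2.90% of all genes), and 3 and 2 without mouse 4. The fall of Ccr6, a receptor of lymphoid and dendritic cells, ended near the low end (6.94 and 7.09 against 6.06 and 5.94). Cxcr6, a homing receptor of lymphocytes, read 8.07 and 8.51 against 7.36 and 6.62 (-1.29 ± 0.24, 2.45-fold), a call lost without mouse 3. S1pr1, which guides cells out of marrow and lymphoid tissue, read 9.64 and 9.04 against 8.24 and 7.43 (-1.51 ± 0.29, 2.84-fold), a call lost without mouse 1 or mouse 4. The count of lower members was 6 without mouse 1, 4 without mouse 3 and at most 7 without any other mouse.

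**Figure D3:**
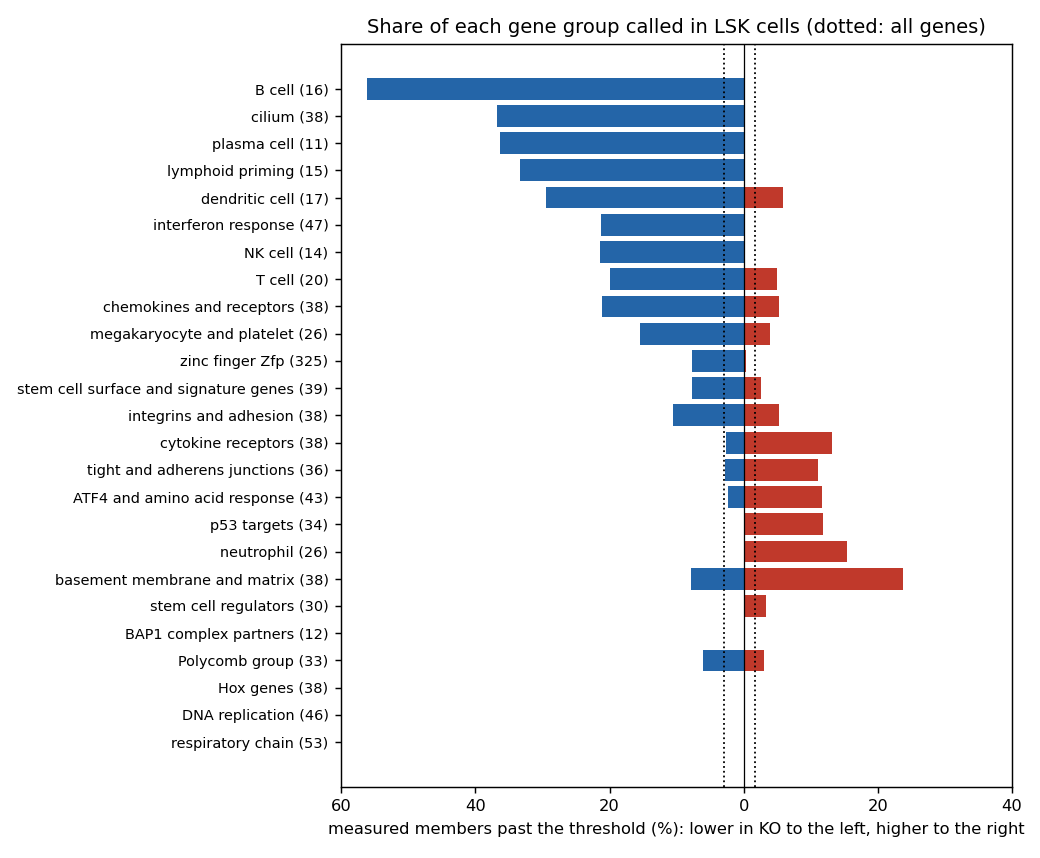
Share of the measured members of each gene group (number in parentheses) that were lower (blue, left) or higher (red, right) in KO LSK cells, in percent; dotted lines mark the share of all genes, 2.90% lower and 1.74% higher. The B cell list reaches 56.2% and the cilium list 36.8% on the left, the basement membrane and matrix list 23.7% on the right, and BAP1 complex partners, Hox, DNA replication and respiratory chain genes show no bar.

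The primary cilium is a sensory antenna whose building needs intraflagellar transport (IFT) and the membrane-trafficking BBSome. Of 38 measured cilium genes 14 fell and 0 rose (36.8% lower against 2.90% of all genes), with a median of -0.54, and at an unadjusted p under 0.05 19 fell and 1 rose. The mean level of the list was 8.71 and 8.66 in WT mice and 8.20 and 8.15 in KO mice. Leaving out single mice left 5 to 12 called members and medians of -0.54 to -0.46, and without mouse 1 the count was 5.

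The small GTPase Arl3, which releases lipid-modified proteins into cilia, read 9.84 and 9.52 in WT mice against 7.93 and 7.85 in KO mice (-1.79 ± 0.21, 3.46-fold, adjusted p = 0.00114). The BBSome subunit Bbs1 read 8.38 and 8.37 against 7.00 and 7.00 (-1.37 ± 0.17, 2.58-fold), and Bbs7 read 8.77 and 9.05 against 7.63 and 7.53 (-1.33 ± 0.20, 2.51-fold). B9d1, a protein of the ciliary transition zone, read 7.52 and 7.52 against 6.34 and 6.26, near the low end in KO mice (-1.22 ± 0.12, adjusted p = 0.000474). These 4 genes and the BBSome subunit Ttc8 (-0.99 ± 0.15) kept their calls without any single mouse. Of the IFT subunits, Ift81 read 10.11 and 9.81 against 8.33 and 8.84 (-1.37 ± 0.25, 2.58-fold), and its call was lost without mouse 1 or mouse 2. Ift80 (-1.06 ± 0.23), Ift74 (-0.92 ± 0.17) and Ift88 (-0.95 ± 0.17, near the low end in KO mice) also lost their calls without mouse 1.

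**Figure D4:**
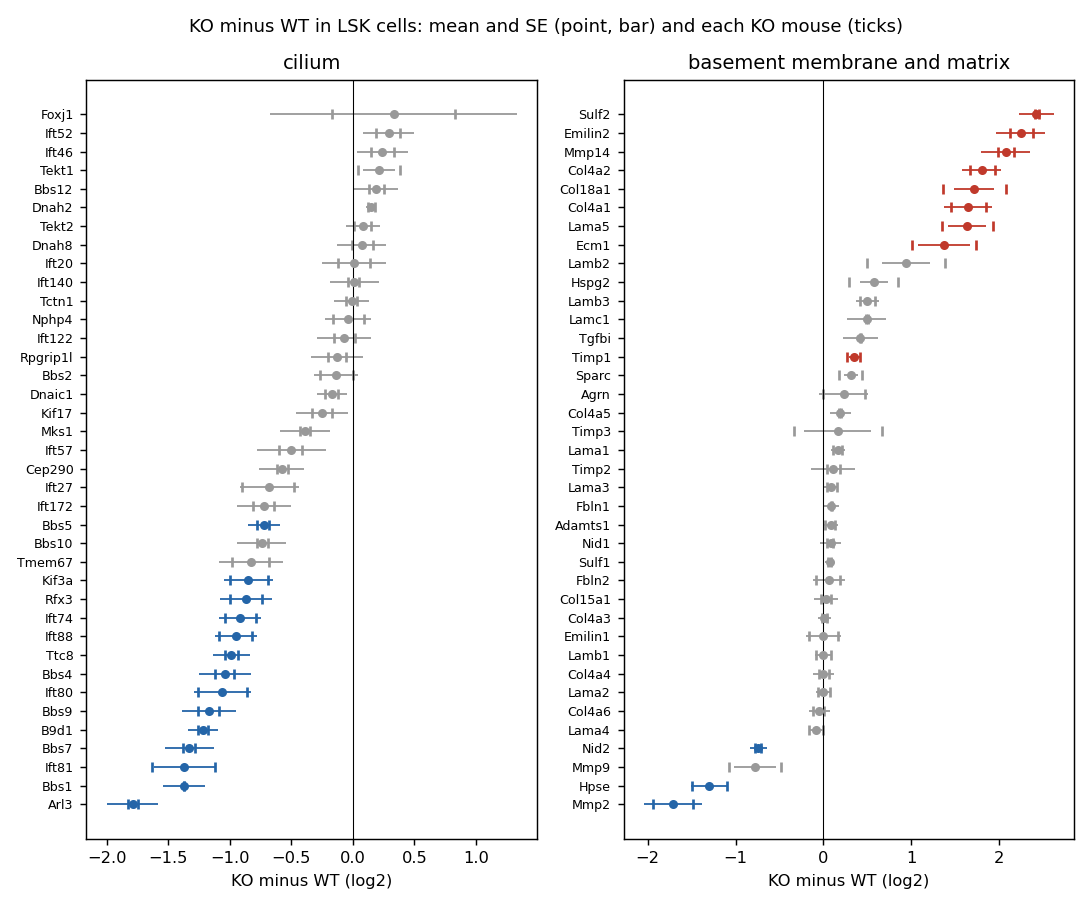
KO minus WT difference (horizontal axis, log2) of every measured cilium gene (left) and basement membrane or matrix gene (right), as mean and SE, with ticks for each KO mouse minus the WT mean; blue genes were lower, red higher, and grey did not pass. The 14 called cilium genes all lie to the left of 0, from -1.79 for Arl3 to -0.72 for Bbs5, while matrix genes were called on both sides.

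Regulatory factor X (RFX) proteins bind the X-box of cilium gene promoters, and the letters GTTGCC are an arm of that box. This motif, added after the values were seen, was searched on both strands of RefSeq promoters (GRCm38.p6, 250 bases before to 50 after each gene's start). It was found in 12.5% of all 32851 promoters and 12.4% of those of measured genes. The share was 14.2% for genes lower in KO and 10.7% for higher genes, and 18 of 38 promoters of the cilium list held it. Among the 14 called cilium genes, 12 had a promoter entry and 7 of these held the motif. The full X-box occurred in 0.691% of all promoters, in 0.838% of those of measured genes, and in that of 1 called cilium gene, Bbs1. Windows are shown for the 3 called genes with the motif that fell most, with the motif in capitals. The windows lie at chr19:4906598-4906697 on the minus strand (Bbs1), chr3:36613458-36613557 on the minus strand (Bbs7) and chr11:61505074-61505173 on the plus strand (B9d1).
Bbs1: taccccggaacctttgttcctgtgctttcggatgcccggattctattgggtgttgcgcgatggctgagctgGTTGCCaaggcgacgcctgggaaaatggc
Bbs7: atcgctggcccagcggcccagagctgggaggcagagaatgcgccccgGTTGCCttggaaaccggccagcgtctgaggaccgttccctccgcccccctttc
B9d1: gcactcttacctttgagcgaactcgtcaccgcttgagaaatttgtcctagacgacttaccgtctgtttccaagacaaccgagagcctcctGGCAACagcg

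Interferon-stimulated genes, which encode antiviral effectors and are expressed at a basal level in stem cells, were among the groups with called decreases. Of 47 measured members 10 fell and 0 rose (21.3% lower against 2.90%), with a median of -0.51, and at an unadjusted p under 0.05 21 fell and 1 rose. This count rested on single mice: it was 0 without mouse 1 and ranged up to 14 when another mouse was left out, with medians of -0.65 to -0.37. The immunity-related GTPase Irgm2 read 11.15 and 10.68 in WT mice against 9.25 and 9.42 in KO mice. Isg15, a ubiquitin-like modifier, read 9.43 and 9.40 against 7.34 and 7.12. Ifit2, an RNA-binding effector, read 10.13 and 10.08 against 8.89 and 9.18 (-1.07 ± 0.20, 2.10-fold), a call lost without mouse 1, 2 or 3. The membrane tether Bst2 read 12.85 and 13.16 against 12.23 and 11.88 (-0.95 ± 0.23, 1.93-fold), and the nucleotide hydrolase Samhd1 read 13.88 and 13.68 against 12.96 and 13.00 (-0.80 ± 0.17, 1.74-fold). Both lost their calls without mouse 1, 2, 3, 7 or 8, and Bst2 also without mouse 4.

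Promoters of such genes carry the interferon-stimulated response element, searched here as GAAANNGAA on both strands of the RefSeq promoters. It was found in 8.56% of all promoters, in 55 of 548 promoters of genes lower in KO and in 5.00% of those of higher genes. In the interferon list it was found in 18 of 38 promoters. Of the 10 called members 7 had a promoter entry and 4 of these held the motif. Windows are shown for the 3 of these that fell most, with the motif in capitals and overlapping matches joined. They lie at chr4:156200843-156200942 on the minus strand (Isg15), chr11:58214867-58214966 on the plus strand (Irgm2) and chr8:71537549-71537648 on the minus strand (Bst2).
Isg15: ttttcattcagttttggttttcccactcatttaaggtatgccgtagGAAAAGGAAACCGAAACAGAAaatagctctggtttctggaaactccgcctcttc
Irgm2: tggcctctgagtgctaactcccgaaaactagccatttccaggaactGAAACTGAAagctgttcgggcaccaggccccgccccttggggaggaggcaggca
Bst2: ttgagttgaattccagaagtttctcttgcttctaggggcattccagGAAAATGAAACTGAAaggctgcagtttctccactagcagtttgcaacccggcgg

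The amino acid stress response is driven by the transcription factor ATF4. Of 43 measured members 5 rose and 1 fell (11.6% higher against 1.74% of all genes), with a median of 0.36, and at an unadjusted p under 0.05 17 rose and 1 fell. Without mouse 1, 3 rose and 0 fell. Trib3, a pseudokinase that restrains this response, read 9.99 and 9.30 in WT mice against 11.19 and 11.30 in KO mice. Chac1, which degrades glutathione, read 7.96 and 8.02 against 9.48 and 9.84, with both KO mice far above the WT pair. Atf5, a related transcription factor, read 11.40 and 11.62 against 12.92 and 12.41 (1.16 ± 0.23, 2.23-fold), a call lost without mouse 1 or mouse 2. The member that fell, the lipoprotein receptor Vldlr, read 9.97 and 10.23 against 8.57 and 9.09 (-1.27 ± 0.27, 2.40-fold), and lost its call without mouse 1, 2 or 3. It is also a surface gene of stem cells.

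The ATF4 response element, searched as TGATGNAA on both strands, was found in 3.97% of all promoters and 2.79% of those of measured genes. It was found in 2.67% of promoters of genes higher in KO and in 12 of 41 of this list. All 6 called members had a promoter entry and 3 held the motif, among them both the risen Chac1 and Trib3 and the fallen Vldlr. Their windows, with the motif in capitals, lie at chr2:119351003-119351102 on the plus strand (Chac1), chr2:152344031-152344130 on the minus strand (Trib3) and chr19:27216774-27216873 on the plus strand (Vldlr).
Chac1: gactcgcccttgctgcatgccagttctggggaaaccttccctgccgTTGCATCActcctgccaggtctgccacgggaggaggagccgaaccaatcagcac
Trib3: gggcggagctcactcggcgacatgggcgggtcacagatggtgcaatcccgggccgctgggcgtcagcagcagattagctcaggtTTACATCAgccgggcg
Vldlr: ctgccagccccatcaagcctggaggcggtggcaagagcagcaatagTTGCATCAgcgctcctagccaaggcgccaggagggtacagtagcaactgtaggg

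Basement membrane and matrix genes, whose products form and remodel the sheet beneath epithelia and vessels, were called in both directions. Of 38 measured members 9 rose and 3 fell (23.7% higher against 1.74% of all genes), with a median of 0.13, and 8 rose and 2 fell without mouse 1. Col18a1, the precursor of endostatin, read 7.05 and 7.17 in WT mice and 9.18 and 8.47 in KO mice (1.71 ± 0.23, 3.28-fold, adjusted p = 0.00246). Lama5, a laminin chain, read 6.87 and 6.74 against 8.73 and 8.15 (1.63 ± 0.22, 3.10-fold). The membrane-anchored metalloproteinase Mmp14 read 8.29 and 8.39 against 10.32 and 10.51 (2.07 ± 0.28, 4.21-fold). The gelatinase Mmp2, which Mmp14 activates, went the other way and read 11.31 and 10.37 against 9.36 and 8.90 (-1.71 ± 0.33, 3.27-fold), a call lost without mouse 1 or mouse 4.

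Adhesion genes changed in both directions, with 10.5% of integrin and adhesion genes lower and 5.26% higher, against 2.90% and 1.74% of all genes. For tight and adherens junction genes the shares were 2.78% lower and 11.1% higher. Of 38 integrin and adhesion genes 4 fell and 2 rose, and 4 and 0 without mouse 1. The integrin chain Itgb5, which pairs with the alpha V chain, read 10.22 and 9.47 against 7.61 and 7.27 (-2.40 ± 0.29, 5.29-fold), and Itga9, an integrin chain that binds tenascin and osteopontin, read 9.46 and 9.29 against 7.39 and 7.34 (-2.01 ± 0.20, 4.02-fold). Jam3, a junctional adhesion molecule of stem cells and endothelium, read 9.37 and 8.97 against 7.48 and 7.33 (-1.77 ± 0.22, 3.40-fold). Ncam1, a neural adhesion molecule, read 7.24 and 7.36 against 8.39 and 9.07 (1.43 ± 0.24, 2.69-fold) and lost its call without mouse 1 (adjusted p = 0.0521). Of the tight and adherens junction genes 4 of 36 rose and 1, Jam3, fell, and without mouse 1 3 rose.

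Other cell types that a marrow sort could hold were checked by their markers. Of 24 endothelial genes 2 rose and 3 fell (8.33% and 12.5%, against 1.74% and 2.90% of all genes). Cldn5, at 7.90 and 7.47 against 11.40 and 11.17, and Flt1 (0.84 ± 0.20) were higher, while Tek, Emcn and Cd93 were lower. Of 24 stromal and bone genes 2 rose (8.33%) and 0 fell, with 4 higher and 4 lower at an unadjusted p under 0.05. Without mouse 1, 1 endothelial and 1 stromal gene rose. Of 31 epithelial genes 4 rose and 1 fell (2 and 0 without mouse 1), and 10 of the 31 lay near the low end in both groups. In percent, 12.9% of the epithelial genes rose and 3.23% fell. The part of other cells in these differences was not tested.

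Of 38 receptors for blood cell cytokines 5 were higher and 1, Il7r, lower (13.2% higher against 1.74% of all genes), and 2 or 3 were higher without any single mouse. Il18r1, the receptor of interleukin-18, read 7.63 and 7.51 in WT mice against 8.92 and 8.74 in KO mice (1.26 ± 0.17, 2.39-fold, adjusted p = 0.00260). Csf2rb, the shared chain of the interleukin-3, interleukin-5 and GM-CSF receptors, read 9.88 and 10.02 against 11.19 and 10.93 (1.11 ± 0.20, 2.16-fold), a call lost without mouse 1 or mouse 2. Its partner Il3ra (0.87 ± 0.21, adjusted p = 0.0449) lost its call without any of the 8 mice. Without mouse 1, 2 receptors rose and 1 fell. Socs2, a feedback inhibitor of cytokine signalling, read 10.55 and 10.75 against 12.51 and 11.91 (1.56 ± 0.30, 2.94-fold), and also lost its call without mouse 1 or mouse 2.

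Neutrophil granule and receptor genes rose in 4 of 26 cases (15.4% against 1.74% of all genes) and fell in 0. At an unadjusted p under 0.05, 6 were higher and 2 lower. The granule protease Ctsg read 11.42 and 12.39 against 12.88 and 13.36 (1.21 ± 0.29), a call that stood only without mouse 3 among the fits that left out a mouse. Without mouse 1 the count was 1, the leukotriene receptor Ltb4r1, at 11.17 and 11.20 against 12.33 and 12.45. Among 34 p53 targets 4 were higher and 0 lower, 3 without mouse 1, with 8 higher and 3 lower at an unadjusted p under 0.05. The share of p53 targets higher was 11.8% against 1.74% of all genes. The cell cycle inhibitor Cdkn1a read 9.85 and 9.27 against 11.68 and 11.06. Zmat3, an RNA-binding p53 target, read 7.67 and 7.81 against 8.64 and 9.61 (1.38 ± 0.29, 2.61-fold), a call lost without mouse 1, 3 or 4.

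Megakaryocyte and platelet genes fell in 4 of 26 cases and rose in 1 (4 and 0 without mouse 1). The actin-regulating pleckstrin gene Plek read 12.98 and 12.47 against 11.29 and 11.37 (-1.39 ± 0.22, 2.62-fold), and its call was lost without mouse 1 (adjusted p = 0.0506). The platelet chemokine Pf4 read 11.79 and 12.19 against 10.93 and 10.63 (-1.21 ± 0.24, 2.31-fold) and lost its call without mouse 3 or mouse 4. The von Willebrand receptor subunit Gp5 was higher (1.16 ± 0.23, 2.23-fold) and lost its call without mouse 1 or mouse 2. The shares of the list were 15.4% lower and 3.85% higher, against 2.90% and 1.74% of all genes.

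Of 30 measured stem cell regulators 1 rose and 0 fell (3.33% and 0%, against 1.74% and 2.90% of all genes), with a median of -0.07. These shares lie near those of all genes. With 2 mice per group they do not show that the regulators were unchanged. At an unadjusted p under 0.05, 1 rose and 5 fell. The riser was Id1, an inhibitor of basic helix-loop-helix factors, at 8.24 and 8.09 against 9.34 and 9.52 (1.26 ± 0.25, 2.39-fold), and it lost its call without mouse 1, 3 or 4. Mecom read 13.09 and 13.03 against 13.33 and 13.26 (0.24 ± 0.26, adjusted p = 0.739). Hlf read 14.59 and 14.34 against 13.87 and 13.79 (-0.64 ± 0.23, adjusted p = 0.178), and both values missed the threshold.

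The stem cell surface and signature list had 3 of 39 members lower and 1 higher, with a median of 0.05 (2 and 1 without mouse 1). Emcn, Tek and Vldlr fell (7.69% against 2.90% of all genes), and Sult1a1 rose (2.56% against 1.74%). Tek, the angiopoietin receptor, read 8.50 and 8.60 against 6.96 and 6.67. Procr, a marker of the most primitive cells, differed within groups as much as between them (10.62 and 9.15 against 9.54 and 8.79). Kit read 13.49 and 12.89 against 12.78 and 12.79 (-0.41 ± 0.21, adjusted p = 0.403), and the surface sialomucin Cd34 read 14.32 and 14.14 against 13.62 and 13.45 (-0.70 ± 0.18, adjusted p = 0.0593).

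None of the 12 measured BAP1 complex partners, Bap1 included, passed limma's adjusted threshold, and 1 was higher and 1 lower at an unadjusted p under 0.05. Asxl1, the main cofactor of BAP1, read 11.63 and 11.75 against 10.84 and 11.40 (-0.57 ± 0.24, adjusted p = 0.264). Hcfc1 read 11.84 and 12.10 against 12.18 and 12.09, and Ogt read 11.28 and 10.47 against 10.62 and 10.36, with overlapping groups in both. Of 33 Polycomb genes 1 rose and 2 fell (3.03% and 6.06%, against 1.74% and 2.90% of all genes). Pcgf2, a ring finger subunit of Polycomb repressive complexes, rose (1.15 ± 0.24), while Scml2 (-0.90 ± 0.22) and Phc3 (-0.87 ± 0.21) fell. A second probe of Pcgf2 read 0.22 (adjusted p = 0.745), and the dimmer probes of Phc3 read -0.61 and -0.01, none of which passed. All 3 genes lost their calls without mouse 1, so that 0 remained.

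Several other groups had 0 called members by limma, and their counts at an unadjusted p under 0.05 are given here as higher and lower. They were 1 and 2 of 38 Hox genes, 2 and 0 of 26 Trithorax and SWI/SNF genes, 0 and 0 of 46 DNA replication genes, 4 and 0 of 37 ribosome biogenesis and MYC genes, and 5 and 0 of 53 respiratory chain genes. Of 49 mitosis genes the securin gene Pttg1 alone fell (2.04% against 2.90% of all genes). Pttg1 read 10.48 and 9.99 against 8.73 and 9.14 (-1.30 ± 0.25), a call lost without mouse 1 or mouse 2. Over all 17741 named genes, 2942 lay under an unadjusted limma p of 0.05. With 2 mice per group a miss does not show that the genes of these groups were alike. The median differences of these groups, in the same order, were -0.01, 0.02, 0.10, 0.21, 0.10 and, for mitosis, -0.10.

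The family named Zfp holds KRAB and other zinc finger genes, many of them repressors. Of 325 measured members 25 fell and 1 rose (7.69% lower against 2.90%, 0.308% higher against 1.74%), although the family median was -0.10. Without mouse 1 the counts were 12 and 2. After Zfp30, the largest decreases were in Zfp239, at 9.78 and 10.19 against 7.96 and 8.42 (-1.80 ± 0.24, 3.48-fold), and Zfp287, at 9.86 and 9.12 against 7.34 and 8.05 (-1.80 ± 0.28, 3.47-fold). Zfp251 read 10.09 and 10.04 against 8.15 and 8.79 (-1.59 ± 0.24, 3.01-fold). Members of this family are similar in sequence, and whether a probe reads related copies was not tested.

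The change with the genotype differed between LSK cells and myeloid progenitors in 11 genes (0.0620%) by limma's test of the difference itself. In 8 of them the LSK change lay below the change in myeloid progenitors and in 3 above it. The widest gap was in the tight junction gene Cldn5, at 3.60 ± 0.24 in LSK cells and 0.48 ± 0.24 in myeloid progenitors (difference 3.12 ± 0.34, adjusted p = 0.0124). Fastk rose by 2.08 ± 0.23 in LSK cells and read -0.70 ± 0.23 in myeloid progenitors (difference 2.78 ± 0.32, adjusted p = 0.0137). Slc35d3 and Paqr5, described above, read -0.07 ± 0.19 and -0.37 ± 0.16 in myeloid progenitors. The ABC transporter Abcg3 read 7.97 and 8.13 against 6.66 and 6.66 in LSK cells (-1.39 ± 0.12, 2.62-fold), and 0.01 ± 0.12 in myeloid progenitors. For Pim1, a survival kinase, Arhgap45 and Fgf13 the LSK change did not pass (-0.19, 0.26 and -0.51), while all 3 rose in myeloid progenitors.

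**Figure D5:**
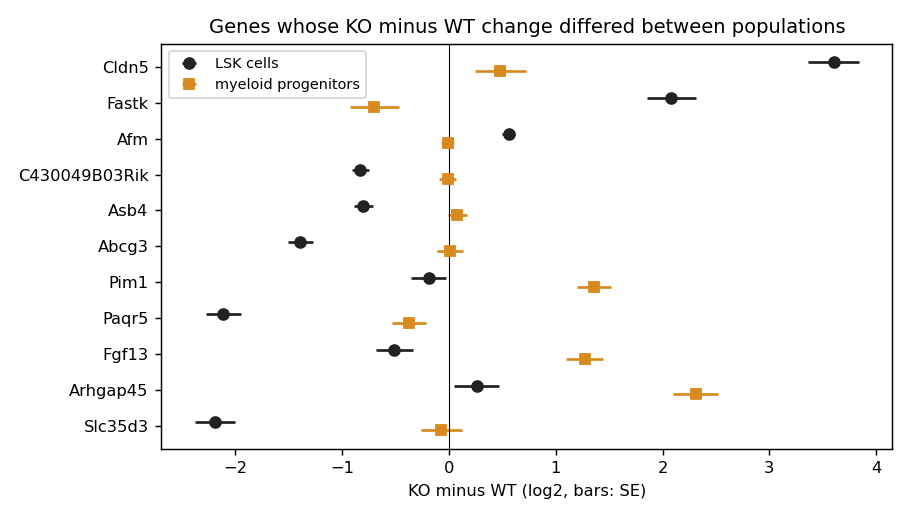
KO minus WT change (horizontal axis, log2, bars show SE) of the 11 genes whose change differed between populations, with black circles for LSK cells and orange squares for myeloid progenitors. Cldn5 and Fastk lie far to the right in LSK cells, and for Pim1, Arhgap45 and Fgf13 the orange squares lie to the right, at 1.36, 2.31 and 1.27.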

How the data were processed

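The deposited values are on a log2 scale, as made by the authors; limma is named, with no version, per the submitters' processing notes. The one-colour Cy5 arrays run from 5.66 to 15.93, and values of equal rank differ between arrays by no more than 0.0451, as quantile normalization would leave them. Background correction and filters are not stated. Of 22439 probes, 2064 had no symbol; names came from the platform annotation, updated through RefSeq GRCm38.p6. The 3 arrays of a mouse were averaged, and the 8 mouse means entered a limma 3.58.1 fit of 4 groups under R 4.3.3 (eBayes with trend and robust), which was tested on simulated data. P-values are two-sided and adjusted over all probes. No label says whether mice of a group were littermates, and no count depth exists for arrays, so the number of mice limits the precision. Named genes were Bap1 and its neighbours, the 40 largest (brighter group above the median probe mean of 7.20), 20 most significant and 15 brightest called changes in each direction, up to 8 members of each gene list or family by size of change, all stem cell, label-check and BAP1 partner genes, up to 15 genes each way that differed between populations, the 5 widest gaps within each group, and sex-linked genes. The 40 largest changes also had to have both KO mice on one side of both WT mice. The lists, members and rules were chosen with earlier results of these data known. Alternatives were fits of LSK mice alone, of all arrays, without single mice, with other centring, filters, moderation or probe averaging.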

Additional observations from a re-analysis of the deposited data

Results flagged for a closer look

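In 11 genes the change with the genotype differed between LSK cells and myeloid progenitors by the limma test of that difference (adjusted p under 0.05). The LSK change minus the myeloid progenitor change was -2.12 for Slc35d3, -2.05 for Arhgap45, -1.78 for Fgf13, -1.74 for Paqr5, -1.55 for Pim1, -1.40 for Abcg3, -0.88 for Asb4 and -0.82 for C430049B03Rik. It was 0.57 for Afm, 2.78 for Fastk and 3.12 for Cldn5. In Asb4 and C430049B03Rik the KO mean of LSK cells was under 6.5, as was the WT mean for Afm.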

How the results depend on the processing

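Every called gene kept its direction in all alternatives, which was largely fixed in advance. The KO and WT mice of every called gene did not overlap, so leaving out a mouse could not reverse it. Fits of LSK mice alone, of all arrays, with filters or with other moderation leave the difference itself unchanged. Only other centring or probe averaging could have changed the direction. The 824 genes called became 479 with LSK mice alone, 331 without both mice with a Y-linked signal (94 higher, 237 lower) and 549 without trend and robust moderation. With all arrays and mouse as a random block 2671 genes called passed, and 2570 with array number as a replicate block added; array numbers name arrays within a mouse and do not pair mice. Leaving out single mice gave 430 (mouse 1) to 968 (mouse 4) genes called; without mouse 4 more were higher (502) than lower (466). Both centrings gave 822 and 820. The 11 genes called for the difference between populations became 454 and 402 with all arrays, without and with the replicate block, 49 without both mice with a Y-linked signal, 31 among probes above the 50th percentile, and 0 without trend and robust moderation, where 1292 passed limma unadjusted. Leaving out single mice gave 10 to 117, with 2 of the 11 kept without mouse 6 and 4 without mouse 8. Of 245 named called genes, 150 kept their calls without mouse 1, 177 with LSK mice alone and 132 without both mice with a Y-linked signal. Keeping genes with a brighter mean of at least 6.5, an alternative chosen after seeing the data, left 792 calls. Array level limits the rest: 5225 genes had both group means under 6.5.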

Other observations

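A set of glucocorticoid-responsive genes was put together after the values were seen, so its counts describe the set and do not test it. It held 5 of 19 members higher and 0 lower in KO LSK cells (26.3% higher against 1.74% of all genes). The median was 0.36, and 8 members were higher and 1 lower at an unadjusted limma p under 0.05. Per1, a clock gene that is also an early target of the glucocorticoid receptor, read 10.62 and 10.15 in WT mice against 12.49 and 11.96 in KO mice (1.84 ± 0.27, 3.59-fold). Klf9 read 10.71 and 10.94 against 12.86 and 12.57 (1.89 ± 0.25, 3.72-fold), and both genes kept their calls without any single mouse. Tsc22d3, which encodes the leucine zipper protein GILZ, read 11.23 and 10.47 against 12.81 and 12.22 (1.67 ± 0.29, 3.18-fold) and lost its call without mouse 2 or mouse 3. The metallothioneins Mt1 (10.64 and 12.43 against 14.20 and 14.24) and Mt2 (7.62 and 9.74 against 11.39 and 11.68) did not pass, with the WT mice far apart. Without mouse 1 the set had 6 higher members. In the clock list Per1 was the 1 gene higher of 18 (5.56% against 1.74% of all genes). The activator Arntl (-1.51 ± 0.27) and the output factor Dbp (-1.26 ± 0.25) were lower (11.1% against 2.90%). Arntl lost its call without mouse 3, and Dbp without mouse 1 or mouse 4. The hour of tissue collection is not known here, and its part was not tested.

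Some genes differed most within a group. Cxcl2, a neutrophil chemokine, read 11.12 in WT mouse 1 and 7.81 in WT mouse 3, and Ppp2r2b, a phosphatase subunit, read 6.96 and 10.04. Among KO mice Cbs, an enzyme of cysteine synthesis, read 9.47 in mouse 2 and 6.04 in mouse 4, against 6.02 and 6.07 in the WT mice. Laptm4a, a lysosomal membrane protein, read 10.94 and 7.26 in the KO mice. The antibody joining chain gene Jchain, chosen after its values were seen, read 12.67 and 12.69 in WT mice against 9.81 and 7.22 in KO mice, and did not pass (-4.16 ± 0.95, adjusted p = 0.112).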
